A study of Mus musculus with 8 samples.

Results

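Collagens are the triple-helical proteins of the extracellular matrix. In the heart, types I, III and V build the fibrils that hold muscle layers together, and they are laid down mainly by fibroblasts. Type IV forms the sheet-like network of basement membranes around cardiomyocytes, capillary endothelium and vascular smooth muscle, while types XV and XVIII are basement membrane collagens that carry sugar chains. Along every collagen chain glycine is the third residue of a repeating triplet, and prolines and lysines are hydroxylated before 3 chains wind into a helix. The genes described here are all those whose name on the array is Col, a number, the letter a and a number. They are 43 genes with 67 probes, among 39429 probes that are not controls.

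The samples are left ventricles (septum, free wall and apex together) of male C57Bl/6j mice killed at 16 weeks of age. From 8 weeks of age, 4 mice ate a low salt diet with 0.05% sodium and 4 mice ate a normal salt diet with 0.4% sodium, and nothing else is given as differing between them. All 8 mice were anaesthetised with pentobarbital sodium at 50 mg per kg before the tissue was taken. Total RNA was amplified, labelled with Cy3 or Cy5 and hybridised to 2-colour Agilent arrays, each of which carried 2 mice of the same diet. There were 4 arrays, so that 2 arrays stand for each diet, and the place of an array on the slide cannot be told apart from the diet. The question the series puts is how a low salt diet alters gene expression in the left ventricle.

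Values are normalised log2 intensities, on which a difference of 1 is a doubling, and differences are low salt minus normal salt. They order the mice within a gene but not the genes among each other, since probes differ in brightness. An SD printed beside a mean is taken over the mice of a diet with the dye left in. In whole ventricle RNA, fewer cells of a type and less RNA per cell cannot be told apart. The RNA carried the ventricular cardiomyocyte markers listed, with 8 of 8 measured, at a summed log2 level of 19.82 to 20.56 in low salt mice and 19.89 to 20.69 in normal salt mice. Atrial cardiomyocyte markers, with 8 of 9 measured, summed to 15.78 to 16.17 in low salt mice and 14.75 to 17.09 in normal salt mice, and without Nppa to 12.02 to 14.59 in low salt mice and 13.04 to 16.04 in normal salt mice. Of the 8, 1 had a positive difference, with a median of -0.91, and 0 passed an adjusted p of 0.05 in limma. Relative to the mean of the 4 mice in the same dye, their median was -0.72, -0.09, -0.37 and -0.70 in low salt mice 1 to 4, against -0.54, 0.20, 1.82 and 0.79 in normal salt mice 1 to 4. Normal salt mice 3 and 4, which shared an array, were highest, and the part of atrial tissue in the collagen values was not tested. Between 53.0% and 66.3% of spots were well above background over the 8 samples, and 0 collagen spots were saturated. Over the 18250 genes measured, the median difference was 0.01, and 140 genes were higher and 7 lower on low salt past an adjusted p of 0.05 in limma. With the mouse number as a block the counts were 213 higher and 20 lower.

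A gene counted as measured where a probe was well above background in at least 4 of the 8 samples. This held for 27 of the 43 collagen genes, read from 37 kept probes. All 8 basement membrane collagens were measured (Col4a1 to Col4a6, Col15a1 and Col18a1). Of 11 fibrillar collagens 7 were measured, and Col2a1, Col11a1, Col24a1 and Col27a1 were not. Of the 24 other collagens 12 were measured. The 12 that were not are Col6a4, Col6a5, Col6a6, Col9a3, Col10a1, Col12a1, Col13a1, Col17a1, Col19a1, Col22a1, Col25a1 and Col28a1, among them the chains known from hypertrophic cartilage (Col10a1) and from the anchoring structures of skin (Col17a1). Of these, Col19a1 had 1 probe that was well above background in 2 of 4 low salt mice and in 0 of 4 normal salt mice. Its log2 intensities were 6.96, 7.06, 6.71 and 6.71 in low salt mice 1 to 4, against 6.28, 6.57, 6.07 and 6.31 in normal salt mice 1 to 4. The groups did not overlap there, but the spots around it differed by 0.31 in the same direction, and no fold is given. The other probe of Col19a1 was not well above background in any mouse. It read 6.16 to 6.30 in low salt mice and 6.05 to 6.27 in normal salt mice, so that the groups overlapped. How many dim probes of the whole array lie apart between the diets was not counted. A further 2 probes whose accession the RefSeq table assigns to Col26a1 carry another name on the array and are not counted.

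Each probe is a 60-base oligonucleotide, and 2 of the 67 read helix-coding sequence along their whole length, with a glycine codon every 9 bases that is set here in capitals. They are shown because they carry the repeat that makes a collagen, and because the first behaves differently from the other probes of its gene. The Col15a1 probe lies at chr4:47283786-47283845 on the plus strand of mm9, the build of the array design, and the Col25a1 probe at chr3:130270497-130270556 on the plus strand.
Col15a1 helix probe: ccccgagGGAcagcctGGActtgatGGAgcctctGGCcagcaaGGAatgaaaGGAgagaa
Col25a1 helix probe: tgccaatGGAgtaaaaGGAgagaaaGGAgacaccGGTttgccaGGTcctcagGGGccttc
The Col25a1 probe was well above background in 1 low salt mouse and 1 normal salt mouse, and Col25a1 was not measured. The annotation used here does not place the other probes in coding or untranslated exons, and they are given by position alone.

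No measured collagen gene passed an adjusted p of 0.05 in limma, with 0 of 27 higher and 0 of 27 lower. Of all genes 0.805% passed, 0.767% as higher and 0.0384% as lower on low salt. Before adjustment, 3 of 27 collagens had a p under 0.05 (Col4a5, Col4a2 and Col5a3, all higher on low salt), where 11.2% of all genes did. Differences ran from -0.24 to 0.60, with 13 positive, 14 negative and a median of 0.00, and 15 of the 27 changed sign under at least 1 alternative setting. In 5 of 27 genes every low salt mouse was above every normal salt mouse, where 7.95% of all genes showed this. These were Col4a2, Col4a4, Col4a5, Col5a3 and Col8a2. In 0 of 27 genes every low salt mouse was below every normal salt mouse, where 4.73% of all genes showed this. The medians by class were 0.17 for basement membrane collagens, 0.00 for fibrillar collagens and -0.08 for the others.

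**Figure D1:**
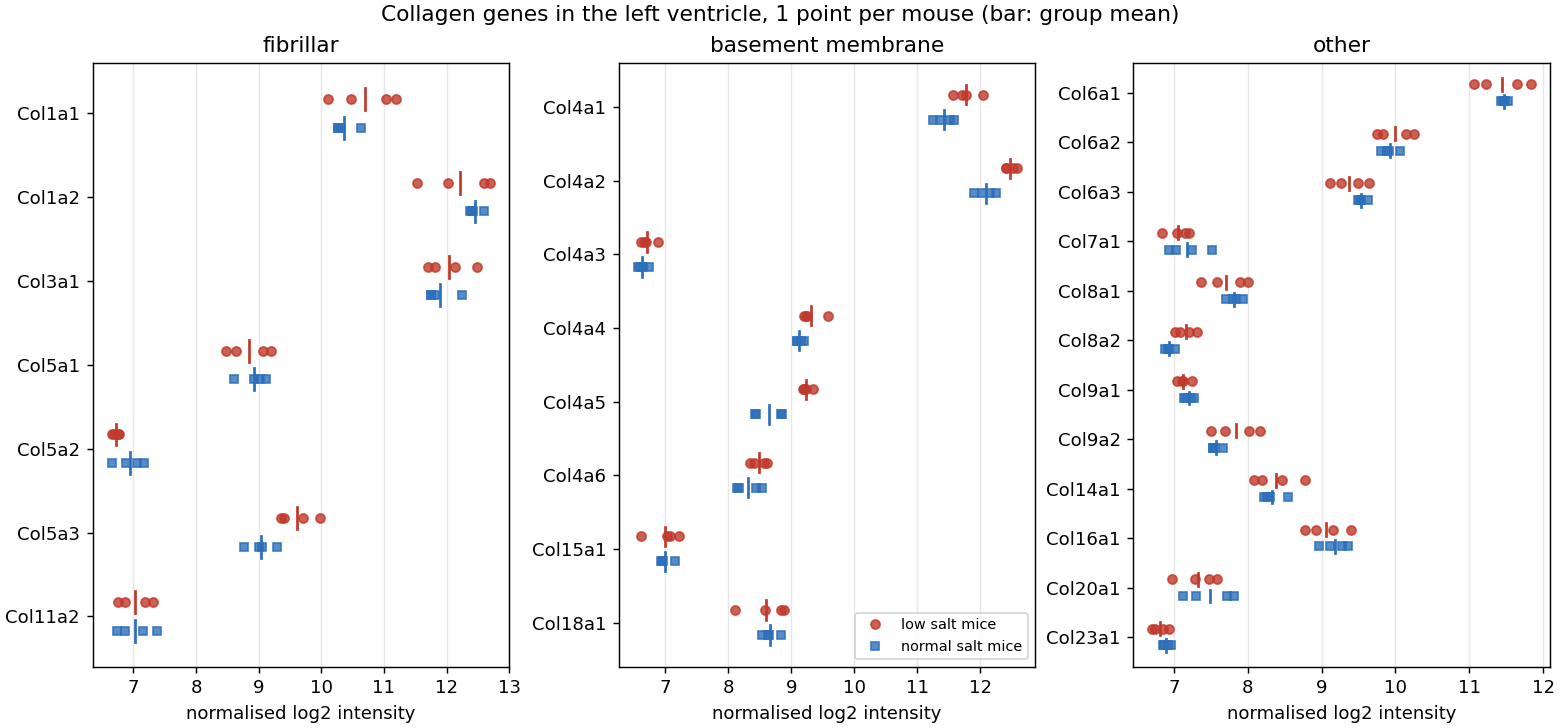
Normalised log2 intensity (horizontal axis) of the 27 measured collagen genes in each mouse, with low salt mice as circles above normal salt mice as squares and bars at the group means, in 3 panels by class. The 2 groups lie apart in Col4a2, Col4a4, Col4a5, Col5a3 and Col8a2, and low salt mice are spread more widely than normal salt mice in most fibrillar and other collagens.

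Type IV collagen chains stood above 0 as a group, although none passed the adjusted threshold. All 6 chains had a positive difference, between 0.08 and 0.60 with a median of 0.27, where 52.7% of all genes were positive. The basement membrane collagens other than type IV had differences near 0. The 6 chains were set apart from the rest of their class after the values were seen, and all 6 were read in the same 8 mice, so their signs are not independent. Within the dyes the type IV median was 0.31 in Cy3 and 0.25 in Cy5.

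Col4a5 encodes the α5 chain, which joins either the α3 and α4 chains or the α6 chain in a trimer. Its probe lies at chrX:138123547-138123606 on the plus strand. Its log2 intensities were 9.35, 9.19, 9.23 and 9.21 in low salt mice 1 to 4, against 8.86, 8.83, 8.43 and 8.44 in normal salt mice 1 to 4. Every low salt mouse was above every normal salt mouse, the low salt mice lay close together, and the normal salt mice fell into 2 levels that follow the array they were on. Col4a5 averaged 9.24 ± 0.07 in low salt mice and 8.64 ± 0.24 in normal salt mice (SD, n = 4 each). The difference was 0.60 (SE 0.14, 95% confidence interval 0.29 to 0.92), which is 1.52-fold, with an adjusted p of 0.127 in limma. The spots around this probe also differed between the diets, by a median of 0.41, and with that local trend subtracted the difference was 0.19 (adjusted p = 0.326 in limma). Col4a5 passed the threshold when normal salt mice 1 and 2, which shared an array, were left out (0.81, adjusted p = 0.0373 in limma, where 1.51% of all genes passed). It also passed with no array block (0.60, adjusted p = 0.0427 in limma, where 3.45% of all genes passed). Its difference was 0.40 with normal salt mice 3 and 4 left out.

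Col4a2 and Col4a1 encode the α2 and α1 chains, which form the common heterotrimer of basement membranes and are transcribed head to head from 1 shared promoter region. The Col4a2 probe lies at chr8:11448840-11448899 on the plus strand and the Col4a1 probe at chr8:11199009-11199068 on the minus strand. Col4a2 had log2 intensities of 12.58, 12.41, 12.42 and 12.53 in low salt mice 1 to 4, against 11.91, 12.03, 12.16 and 12.26 in normal salt mice 1 to 4, and the groups did not overlap. It averaged 12.48 ± 0.08 in low salt mice and 12.09 ± 0.15 in normal salt mice (SD, n = 4 each). The difference was 0.40 (SE 0.13, 95% confidence interval 0.10 to 0.69), which is 1.32-fold, with an adjusted p of 0.296 in limma. It was 0.47 in the Cy3 mice and 0.33 in the Cy5 mice, and 0.33 with the local trend subtracted. Col4a1 had log2 intensities of 11.78, 11.57, 11.71 and 12.05 in low salt mice 1 to 4, against 11.25, 11.36, 11.53 and 11.58 in normal salt mice 1 to 4. The lowest low salt mouse (mouse 2) lay just below the highest normal salt mouse (mouse 4), so the groups overlapped. Col4a1 averaged 11.78 ± 0.20 in low salt mice and 11.43 ± 0.15 in normal salt mice (SD, n = 4 each), a difference of 0.35 (SE 0.17, 95% confidence interval -0.04 to 0.74) with an adjusted p of 0.486 in limma.

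The Col4a1 probe is printed 10 times on each array, so its difference could be read at 10 places. It was positive at 9 of 10 spots, between -0.22 and 1.06, with a median of 0.32 and an SD over spots of 0.31. Over the 267 kept probes with 10 spots, the median of that SD was 0.14 (quartiles 0.10 and 0.20). The highest value, 1.06, came from the spot in row 160, whose surroundings differed by 0.48, and the only negative one came from row 80, whose surroundings differed by -0.20. At the 8 spots whose surroundings differed by less than 0.1 the difference ran from 0.24 to 0.52, with a mean of 0.33 and an SD of 0.09. Spots of 1 probe share the same RNA and are not replicates of the diet.

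**Figure D2:**
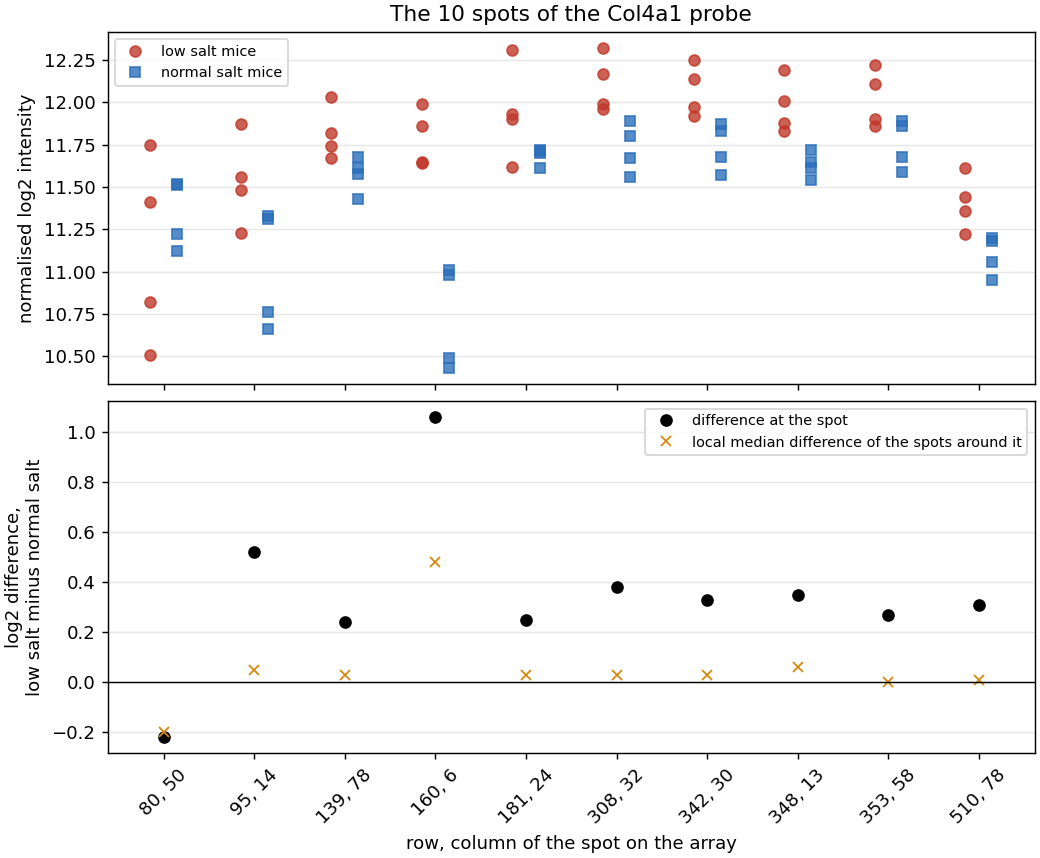
The 10 spots of the Col4a1 probe by row and column on the array, with the log2 intensity of each low salt mouse (circles) and each normal salt mouse (squares) above, and the low salt minus normal salt difference of the spot (points) and of the spots around it (crosses) below. The difference lies between 0.24 and 0.52 at 8 spots and departs to 1.06 and -0.22 at the 2 spots whose surroundings also depart from 0.

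Col4a6 encodes the α6 chain, and its gene lies head to head with Col4a5. Col4a6 had log2 intensities of 8.62, 8.57, 8.41 and 8.34 in low salt mice 1 to 4, against 8.54, 8.44, 8.17 and 8.14 in normal salt mice 1 to 4. The groups overlapped, and mice 1 and 2 were above mice 3 and 4 on both diets. Its difference was 0.16 (SE 0.13, adjusted p = 0.646 in limma), and the second probe of the gene read -0.10. Col4a4 encodes the α4 chain. Its log2 intensities were 9.58, 9.20, 9.23 and 9.25 in low salt mice 1 to 4, against 9.09, 9.16, 9.20 and 9.09 in normal salt mice 1 to 4. The groups were apart by less than the rounding of these values, and low salt mouse 1 stood alone above the rest. The difference was 0.18 (SE 0.15, adjusted p = 0.647 in limma), and the second probe read 0.07. Col4a3, for the α3 chain, differed by 0.08 (SE 0.10, adjusted p = 0.787 in limma) and was well above background in 2 mice of each diet.

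Col15a1 and Col18a1 encode the chains from which the fragments restin and endostatin are cut. Col18a1 averaged 8.60 ± 0.35 in low salt mice and 8.66 ± 0.13 in normal salt mice (SD, n = 4 each), a difference of -0.06 with an adjusted p of 0.951 in limma. Col15a1 averaged 6.99 ± 0.26 in low salt mice and 6.99 ± 0.10 in normal salt mice, a difference of -0.01 with an adjusted p of 0.992 in limma. The helix-coding Col15a1 probe printed above read otherwise, with 5.76, 5.73, 7.16 and 7.21 in low salt mice 1 to 4, against 7.17, 6.75, 7.39 and 7.0 in normal salt mice 1 to 4. Only the 2 low salt mice of 1 array were low there, and in those 2 the probe was not well above background, while the scanner had marked the spot's local background there as an outlier. That probe's difference was -0.61 (SE 0.39, adjusted p = 0.571 in limma), and the third probe of the gene read 0.03.

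**Figure D3:**
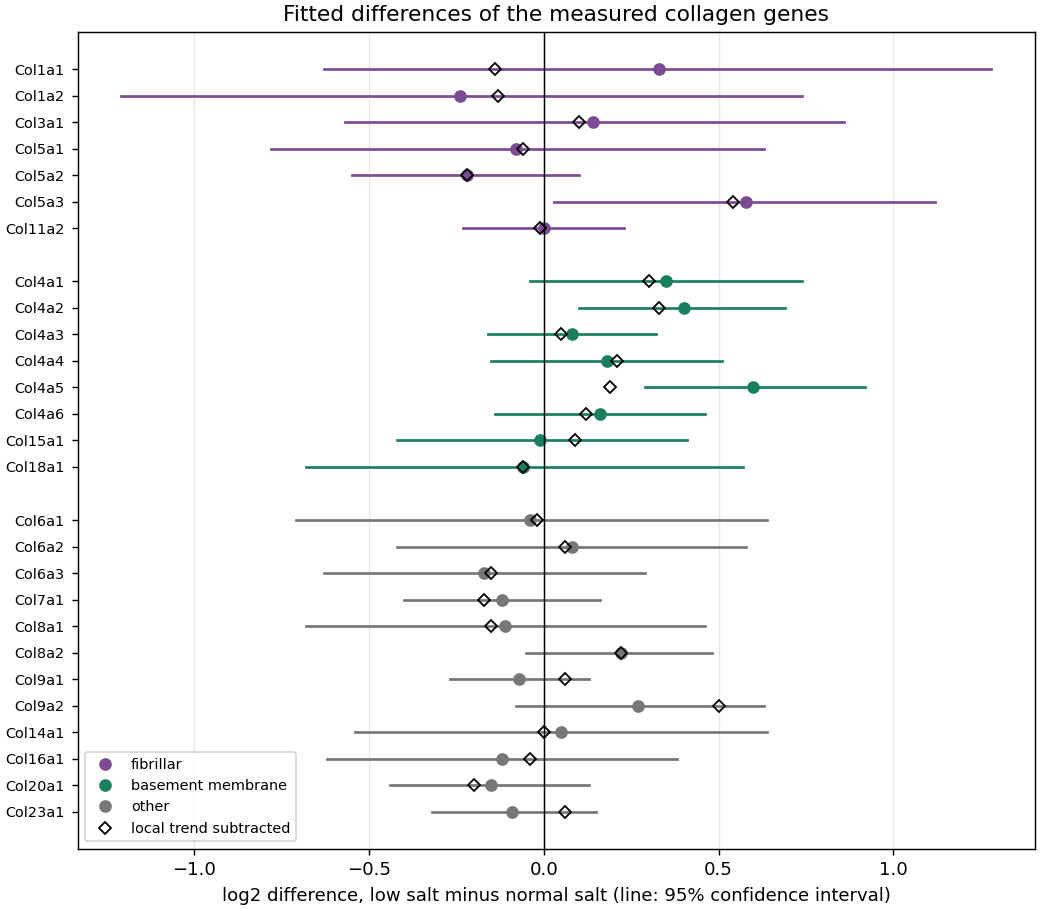
Low salt minus normal salt difference on the log2 scale (horizontal axis) of the 27 measured collagen genes, as points with 95% confidence intervals coloured by class, with the value after subtraction of the local trend as an open diamond. The 6 type IV chains lie to the right of 0 with and without the subtraction, while Col4a5 moves to 0.19 and Col1a1 to -0.14.

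Fibrillar collagens did not share 1 direction of difference between the diets. Of 7 measured, 3 had a positive difference and 4 a negative one, with a median of 0.00, and 0 passed the adjusted threshold. Col5a3 encodes the α3 chain of type V collagen, a minor fibrillar type that joins type I fibrils, and its probe lies at chr9:20574592-20574651 on the minus strand. Col5a3 had log2 intensities of 9.98, 9.36, 9.41 and 9.70 in low salt mice 1 to 4, against 9.30, 9.05, 9.01 and 8.77 in normal salt mice 1 to 4, and the groups did not overlap. It averaged 9.61 ± 0.29 in low salt mice and 9.03 ± 0.22 in normal salt mice (SD, n = 4 each). The difference was 0.58 (SE 0.24, 95% confidence interval 0.03 to 1.12), which is 1.49-fold, with an adjusted p of 0.423 in limma. It was 0.54 with the local trend subtracted, and 0.54 in the Cy3 mice and 0.61 in the Cy5 mice. Of the other type V chains, Col5a1 differed by -0.08 (95% confidence interval -0.78 to 0.63, adjusted p = 0.939 in limma) and Col5a2 by -0.22 (95% confidence interval -0.55 to 0.10, adjusted p = 0.568 in limma). The chains were not tested against each other. Col5a2 was well above background in 2 low salt mice and 3 normal salt mice.

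Type I and type III collagen are the bulk of the fibrillar matrix of the heart. Col1a1 encodes the α1 chain of type I, which is present in each trimer beside the α2 chain, and its probe lies at chr11:94813115-94813174 on the plus strand. Col1a1 had log2 intensities of 11.03, 10.10, 10.47 and 11.20 in low salt mice 1 to 4, against 10.27, 10.32, 10.26 and 10.64 in normal salt mice 1 to 4. Low salt mice 1 and 4 were above every normal salt mouse, and low salt mouse 2 was below all of them. The difference was 0.33 (SE 0.42, 95% confidence interval -0.63 to 1.28, adjusted p = 0.785 in limma). The spots around the probe differed by 0.47, and with the local trend subtracted the difference was -0.14, so that its direction is not fixed.

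Col1a2, whose probe lies at chr6:4490619-4490678 on the plus strand, had log2 intensities of 12.70, 11.52, 12.02 and 12.60 in low salt mice 1 to 4, against 12.59, 12.42, 12.41 and 12.37 in normal salt mice 1 to 4. The difference was -0.24 (SE 0.43, 95% confidence interval -1.21 to 0.74, adjusted p = 0.851 in limma), and it was 0.06 without low salt mouse 2. Col3a1, the single chain of type III, had 12.14, 11.70, 11.82 and 12.49 in low salt mice 1 to 4, against 11.82, 11.75, 11.75 and 12.24 in normal salt mice 1 to 4, a difference of 0.14 (SE 0.31, adjusted p = 0.879 in limma). In all 3 genes low salt mouse 2 was the lowest of the 8, and low salt mouse 1 or 4 the highest. The interval of Col1a1 reaches past a doubling on low salt, and that of Col1a2 past the same fold in the other direction. Col11a2, a fibrillar chain best known from cartilage, had equal means on both diets, with 7.03 ± 0.26 in low salt mice and 7.03 ± 0.28 in normal salt mice (SD, n = 4 each). With the dye taken out, the SD was 0.07 in low salt mice and 0.11 in normal salt mice.

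The other 12 measured collagens lay between -0.17 and 0.27, with a median of -0.08 and 4 positive. Col9a2, a chain of the fibril-associated type IX, had the highest value. Its log2 intensities were 7.50, 7.69, 8.02 and 8.16 in low salt mice 1 to 4, against 7.53, 7.53, 7.54 and 7.67 in normal salt mice 1 to 4. The difference was 0.27 (SE 0.16, adjusted p = 0.536 in limma), while the spots around the probe differed by -0.22, and subtraction of the local trend gave 0.50 (adjusted p = 0.131 in limma). The groups overlapped through low salt mouse 1, and its partner chain Col9a1 differed by -0.07.

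Col8a2, a chain of the network-forming type VIII made by vascular and corneal endothelium, was the only gene of this class whose groups did not overlap. It had 7.32, 7.20, 7.09 and 7.02 in low salt mice 1 to 4, against 6.92, 6.94, 6.88 and 7.01 in normal salt mice 1 to 4, with 4 low salt mice and 2 normal salt mice well above background. The groups were apart by the smallest step the values allow, with a difference of 0.22 (SE 0.12, adjusted p = 0.511 in limma), and Col8a1 differed by -0.11. Type VI collagen forms beaded filaments around cells. Its 3 chains differed by -0.04 (Col6a1), 0.08 (Col6a2) and -0.17 (Col6a3), with adjusted p of 0.972, 0.909 and 0.771 in limma. A second probe of Col6a2 read -0.12. The rest were Col7a1 at -0.12, Col14a1 at 0.05, Col16a1 at -0.12, Col20a1 at -0.15 and Col23a1 at -0.09, and the second probes of the last 4 read between -0.16 and 0.09.

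Low salt mice differed among themselves more than normal salt mice did in most collagens. With the dye taken out, the SD between mice was larger on low salt in 21 of 27 genes (77.8%), where this held for 55.6% of all genes. The median SD was 0.35 in low salt mice and 0.16 in normal salt mice for fibrillar collagens, and 0.23 in low salt mice and 0.07 in normal salt mice for the other collagens. For basement membrane collagens it was 0.14 on both diets, and over all genes 0.12 in low salt mice and 0.10 in normal salt mice. Collagen genes vary together within a mouse, so these counts carry no test.

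The spread had the same shape in many collagens, with low salt mice 1 and 4 high and mouse 2 low. The median log2 level of the fibrillar collagens, relative to the mean of the 4 mice in the same dye, was 0.26, -0.35, -0.07 and 0.38 in low salt mice 1 to 4, against 0.01, -0.14, -0.13 and 0.07 in normal salt mice 1 to 4. Low salt mouse 2 was the lowest of all 8 mice in 10 of 27 collagens (37.0%), where it was so in 10.3% of all genes. Low salt mouse 4 was the highest in 11 of 27 (40.7%, against 7.61% of all genes) and low salt mouse 1 in 9 of 27 (33.3%, against 21.5% of all genes). By the fibrillar medians, the high mouse was the Cy3 mouse on 1 low salt array and the Cy5 mouse on the other. Its partner on the array was below 0 both times, and the part of array and dye in the spread was not tested. Col6a1 is an example, with 11.84, 11.06, 11.22 and 11.64 in low salt mice 1 to 4, against 11.52, 11.43, 11.45 and 11.49 in normal salt mice 1 to 4.

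**Figure D4:**
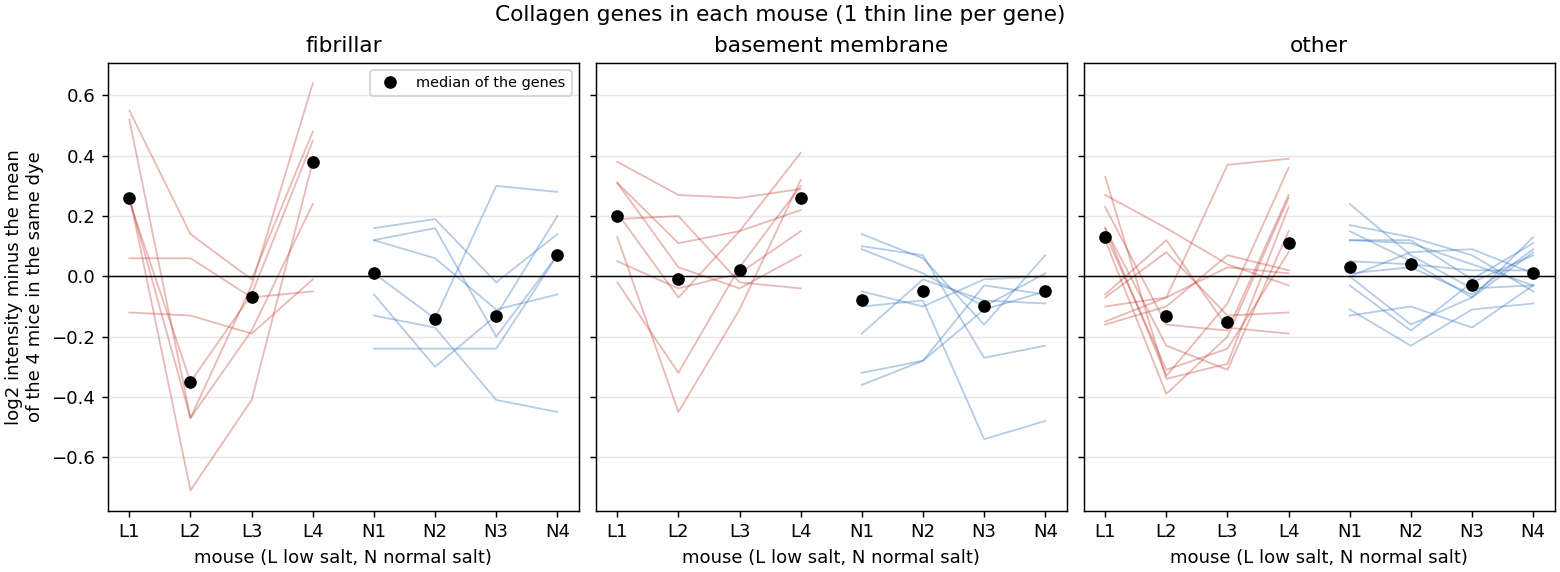
Log2 intensity relative to the mean of the 4 mice in the same dye (vertical axis) in low salt mice 1 to 4 (left) and normal salt mice 1 to 4 (right), with 1 line per gene and a point at the median of the class. Fibrillar collagens run between -0.35 and 0.38 at the median in low salt mice, and between -0.14 and 0.07 in normal salt mice.

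Markers of matrix-making cells had a spread that was alike in part. The median of 10 fibroblast markers, on the same relative scale, was 0.01, -0.22, -0.23 and 0.22 in low salt mice 1 to 4, against 0.16, -0.03, 0.02 and 0.06 in normal salt mice 1 to 4. That of 5 measured myofibroblast markers of 6 was 0.01, -0.63, -0.01 and 0.38 in low salt mice 1 to 4, against 0.12, -0.13, -0.07 and -0.02 in normal salt mice 1 to 4. Low salt mouse 4 was highest and mouse 2 at or near the lowest in both lists, as in the fibrillar collagens. Low salt mouse 1 was not high in either list, unlike in the fibrillar collagens, where its median was 0.26. The part of cell number in the spread was not tested. Summed over the list, fibroblast markers lay at a log2 level of 16.04 to 16.91 in low salt mice and 16.77 to 17.28 in normal salt mice. Myofibroblast markers lay at 12.81 to 13.77 in low salt mice and 13.32 to 13.77 in normal salt mice, with Cthrc1 not well above background in any mouse. Dcn and Gsn, the brightest fibroblast markers, weigh most in the fibroblast sum, and Acta2 in the myofibroblast sum. The sums without them were not taken. No marker passed the threshold in either list. Of the 10 fibroblast markers 5 had a positive difference, with a median of -0.03. Of the 5 measured myofibroblast markers 2 were positive, with a median of -0.16. Gsn (-0.53) and Dcn (-0.62) had the smallest p of the fibroblast list. Fap (-0.44) and Postn (-0.81) had the smallest p of the myofibroblast list. Postn was at 7.86, 7.49, 8.54 and 9.33 in low salt mice 1 to 4, against 8.99 to 9.18 in normal salt mice. Its lowest values were thus those of 1 low salt array, and low salt mouse 4 was above every normal salt mouse.

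Endothelial markers lay mostly below 0, and those of the other cells that rest on type IV collagen near it. Of 12 endothelial markers 2 had a positive difference, with a median of -0.36, and 0 passed the threshold. Their summed log2 level was 16.15 to 16.58 in low salt mice and 16.67 to 17.24 in normal salt mice. Fabp4, the brightest of the 12, weighs most in that sum, and the sum without it was not taken. It was at 14.51 to 15.78 in low salt mice and 15.72 to 16.64 in normal salt mice. In Kdr, Flt1 and Vwf, which are also bright, the groups overlapped. Eng, a co-receptor for TGF-beta, differed by -0.47 (adjusted p = 0.210 in limma) and Esam, an endothelial adhesion molecule, by -0.57 (adjusted p = 0.279 in limma). Ventricular cardiomyocyte markers had 4 of 8 positive and a median of -0.02. Smooth muscle and pericyte markers had 3 of 10 positive and a median of -0.08, with sums of 15.55 to 15.93 in low salt mice and 15.62 to 15.87 in normal salt mice. Macrophage markers had 6 of 7 positive, a median of 0.26 and sums of 13.34 to 13.76 in low salt mice and 13.12 to 13.36 in normal salt mice. Markers of adipocytes (3 measured), epicardium (3), Schwann cells and nerve (6) and blood (6) had medians of 0.21, -0.21, -0.16 and -0.02. None of these lists had a gene past the threshold. The part of these cells in the type IV values was not tested.

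Genes of other proteins in the basement membrane had differences of both signs. Of 16 listed partners (laminins, nidogens, perlecan and others) 14 were measured, 0 passed the threshold, and 5 were positive with a median of -0.18. Hspg2, which encodes perlecan, averaged 13.09 ± 0.17 in low salt mice and 13.62 ± 0.10 in normal salt mice (SD, n = 4 each), a difference of -0.53 with an adjusted p of 0.261 in limma. Nid2, a nidogen that links laminin to type IV collagen, averaged 8.32 ± 0.15 in low salt mice and 8.80 ± 0.16 in normal salt mice, a difference of -0.48 with an adjusted p of 0.271 in limma. Each of these 2 genes had every low salt mouse below every normal salt mouse, where 4.73% of all genes showed this. They were named for the smallest p of the list, which favours groups that lie apart. The direction was opposite to Col4a2 and Col4a5, though the Col4a5 difference was 0.19 with the local trend subtracted. Lama2, the laminin α2 chain of muscle, was chosen after its values were seen. It averaged 11.70 ± 0.17 in low salt mice and 11.32 ± 0.15 in normal salt mice (SD, n = 4 each), with no overlap and a difference of 0.38 (adjusted p = 0.287 in limma). The spots around its probe differed by 0.38 as well, and with the local trend subtracted the difference was 0.00. Whether the type IV and partner differences differ from each other was not tested.

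The machinery that makes, trims and removes collagen showed no change past the threshold. Of 25 genes for collagen folding and crosslinking 22 were measured, 10 were positive and the median was -0.03. P4hb, the β subunit of prolyl 4-hydroxylase, averaged 12.26 ± 0.12 in low salt mice and 11.61 ± 0.11 in normal salt mice (SD, n = 4 each), a difference of 0.64 with an adjusted p of 0.0523 in limma. The spots around its probe differed by 0.52, and with the local trend subtracted the difference was 0.13 (adjusted p = 0.495 in limma). P4ha2, an α subunit of the same enzyme, differed by 0.39 (adjusted p = 0.332 in limma). Of 8 genes for propeptide processing 6 were measured with a median of 0.12, led by Tll1 (0.16) and Adamts14 (-0.15).

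Collagen degradation and its inhibitors had 13 of 17 measured and a median of 0.07. Timp3, an inhibitor of metalloproteinases bound to the matrix, averaged 12.97 ± 0.19 in low salt mice and 13.52 ± 0.05 in normal salt mice (SD, n = 4 each), a difference of -0.54 with an adjusted p of 0.296 in limma, and Ctsl, a lysosomal protease, differed by 0.32. Collagen receptors had 11 of 12 measured and a median of 0.03. Itga1 (-0.55) and Itga11 (0.38), the α subunits of a receptor for type IV and of one for fibrillar collagen, had opposite signs, and neither passed the threshold. Itga1 was at 8.03, 7.83, 8.80 and 8.90 in low salt mice 1 to 4, against 9.15, 8.93, 8.93 and 8.72 in normal salt mice 1 to 4, so that only the low salt mice of 1 array lay below the normal salt mice. Partners of collagen fibrils had 17 of 18 measured, 5 positive and a median of -0.16, with Tnxb (-0.63) and Thbs2 (-0.35) at the smallest p.

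Scx was the only gene of these lists past the threshold. It encodes scleraxis, a transcription factor of tendon and of cardiac fibroblasts. Scx had log2 intensities of 11.40, 11.28, 10.87 and 11 in low salt mice 1 to 4, against 10.27, 10.14, 10.01 and 10.10 in normal salt mice 1 to 4, and the groups lay apart. The difference was 1.01 (SE 0.16, adjusted p = 0.0292 in limma), and 0.95 with the local trend subtracted (adjusted p = 0.0293 in limma). With each array averaged, with no normalisation between arrays, or in either dye alone, no gene of the array passed, and so neither did Scx. The other 23 measured regulators of TGF-beta signalling and fibrosis did not pass, and the list median was -0.07. Markers of valve, tendon and cartilage, a list that also holds Scx, had 6 of 11 measured, with Tnmd, Mkx and Hapln1 not well above background in any mouse. Their summed log2 level was 11.31 to 11.75 in low salt mice and 10.76 to 10.99 in normal salt mice. Scx carries that sum, and without it the other 4 genes measured in all mice summed to 9.36 to 10.14 in low salt mice and 9.32 to 9.64 in normal salt mice. Low salt mouse 2, in which Col1a1, Col1a2 and Col3a1 were lowest, had the second highest value of Scx. The highest value of Scx was in low salt mouse 1, which was also the highest of all mice in Col1a2 (12.70). Whether Scx and the collagens vary together over the mice was not tested.

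**Figure D5:**
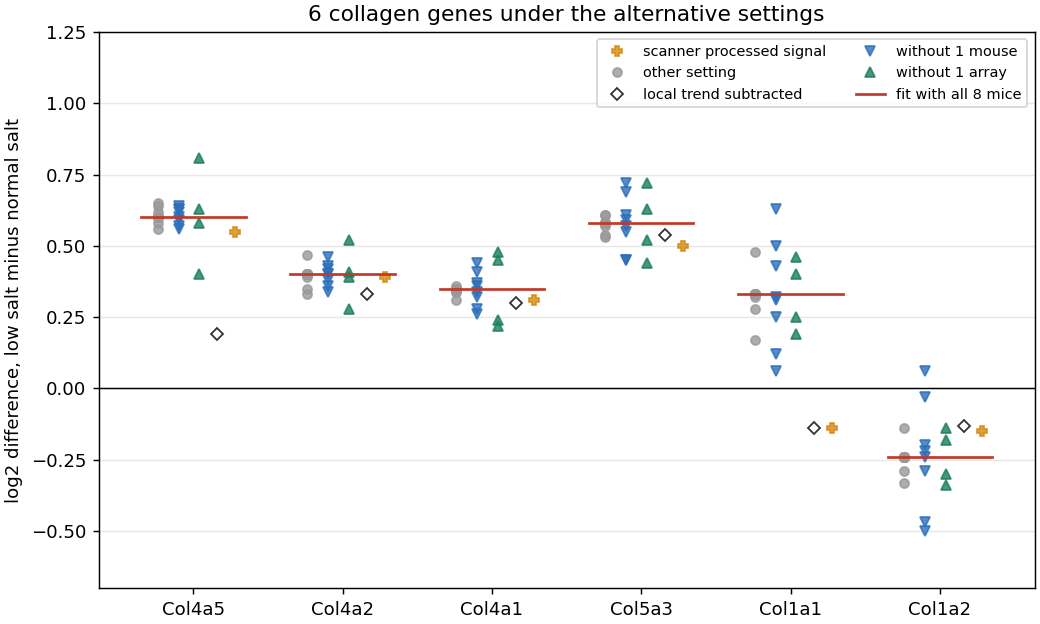
Low salt minus normal salt difference on the log2 scale (vertical axis) of 6 collagen genes, with a bar for the fit with all 8 mice and points for the alternative settings. Col4a5, Col4a2, Col4a1 and Col5a3 stay above 0 under each setting, with Col4a5 between 0.19 and 0.81, while Col1a1 (from -0.14 to 0.63) and Col1a2 (from -0.50 to 0.06) lie on both sides of 0.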

How the data were processed

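Spot intensity and local background were read from the scanner tables, which were made with Agilent Feature Extraction 11.5.1.1 per the file headers. The other deposited columns used are quality flags, positions and names. The deposited value table holds a ratio with a median of 1 in each column, made by the authors; its rows could not be matched to probes and it was used for no gene. Signals were corrected with normexp (offset 50; flagged local backgrounds took the channel median), normalised by loess within and Aquantile between arrays, and turned into log2 intensity per channel in limma 3.58.1 (R 4.3.3, statmod 1.5.0). A probe had to be well above background in 4 or more samples to enter, and the brightest such probe stood for its gene.

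The limma model held diet and dye, with array as a random block (correlation 0.557), and p-values were adjusted by Benjamini-Hochberg over 18250 genes. The local trend is the running median over 21 by 21 spots. Mouse number was checked as a pairing. Mice of the same number deviated together across the diets in all 4 pairs, with correlations over genes of 0.30, 0.14, 0.17 and 0.19, and the labels do not say what the number marks. The labels call the 8 mice separate samples, and the number of arrays limits the precision.

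The members and gene lists were chosen with earlier results of these data known. Every collagen may be named; full statistics go to the 4 smallest p of each class, and a list's named genes are up to 4 past the threshold or the 2 of smallest p. In all, 28 alternatives were run. Whether probes lie in exons or untranslated regions was not analysed here.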

Additional observations from a re-analysis of the deposited data

Results flagged for a closer look

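In 5 of the 54 groups of 4 mice tested, 1 mouse stood far from the other 3 by Dixon's criterion at the 95% level, and chance alone flags about 1 in 20 groups. Col4a4 in low salt mouse 1 was at 9.58, against 9.20 to 9.25 in the other low salt mice. The remaining flags are in normal salt mice. Col15a1 in normal salt mouse 1 was at 7.15, against 6.93 to 6.96 in the others. In normal salt mouse 4, Col1a1 was at 10.64 (others 10.26 to 10.32), Col3a1 at 12.24 (others 11.75 to 11.82) and Col9a2 at 7.67 (others 7.53 to 7.54).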

How the results depend on the processing

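No collagen call was lost or gained except that of Col4a5, which passed the threshold with no array block (0.60, adjusted p = 0.0427 in limma) and with normal salt mice 1 and 2, which shared an array, left out (0.81, adjusted p = 0.0373 in limma); the count of collagens higher on low salt was 1 in both and 0 otherwise. The mouse number as a block changed no collagen call (adjusted p in limma 0.0723 for Col4a5, 0.172 for Col4a2 and 0.169 for Col5a3). Of the 12 collagens followed in full (the 4 of smallest p in each class), signs turned for Col1a1 (-0.14 with the scanner's processed signal and -0.14 with the local trend subtracted), Col1a2 (-0.50 to 0.06 with 1 mouse or array left out, the highest without low salt mouse 2) and Col4a6 (0.00 to 0.33, the lowest without normal salt mice 3 and 4). Of the other 15 measured collagens, 12 turned sign under at least 1 setting (Col3a1, Col5a1, Col6a1, Col6a2, Col8a1, Col9a1, Col11a2, Col14a1, Col15a1, Col16a1, Col18a1 and Col23a1). The cause was not tested. The basement membrane median was 0.30 with the scanner's processed signal and 0.07 with every probe on its own. Over the whole array, genes higher and lower numbered 487 and 142 with no array block, 213 and 20 with the mouse number as a block, 39 and 11 with the local trend subtracted, and 2 and 1 in the even parts of the arrays. With the scanner's processed signal 29 were higher, and with genes well above background in all 8 samples 2 were lower. They numbered 0 and 0 with no normalisation between arrays, each array averaged, Cy3 alone or Cy5 alone, where limma gave 781, 1589, 1862 and 1261 genes at an unadjusted p under 0.05. Leaving out 1 mouse or 1 array gave 51 to 437 higher and 1 to 653 lower. The remaining 325 values of the 12 collagens followed in full and 152 of counts and class medians kept their direction and side of the threshold or moved by less than the replicate spread. Depth of signal limits the 16 collagens that were not measured.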
